A study of Mus musculus with 4 samples.

Results

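Cd274 and 6 other genes of tumour cell immune checkpoints were followed through 4 RNA libraries of mouse 4T1 cells, a mammary carcinoma line that metastasises in BALB/c mice. They were chosen by gene symbol, by a rule that uses no measured value, but with earlier results of these data known. The list holds Cd274, which encodes the checkpoint ligand PD-L1, Cmtm6, which encodes its stabiliser, and the ligand genes Cd47, Pvr, Nectin2, Cd276 and Lgals9. All 7 had values, out of 12967 gene symbols in all, and all 7 were among the 10283 symbols that averaged 5 or more CPM, a read count scaled to a common library total. They held 13 of the 24393 transcript rows.

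One line stably expressed a scrambled shRNA (shSCR) and the other an shRNA (shCerS4) that targets CerS4, the ceramide synthase 4 of sphingolipid synthesis. RNA was immunoprecipitated from each line with an antibody against Caprin-1, which binds RNA and takes part in stress granules, or with IgG as the control, which gave 1 library for each of the 4 groups. Both lines grew in DMEM with 10% FBS, antibiotics, plasmocin and 4 µg/mL puromycin. The labels do not say whether a line was a clone or a pool. The study asked how a complex of PD-L1 with Caprin-1 bears on mRNA binding when lipid metabolism is altered, and its main comparison was shCerS4 against shSCR with Caprin-1. With 1 library per group there was no replicate and no significance test. Values in square brackets are 95% counting intervals, which cover counting error between these libraries only.

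PD-L1 on a tumour cell binds the receptor PD-1 on T cells and restrains them, and CMTM6 protects PD-L1 at the cell surface and in endosomes from lysosomal breakdown. CD47 restrains phagocytosis through SIRPα on macrophages, and PVR (CD155) and nectin-2 (CD112) bind the lymphocyte receptors TIGIT, CD96 or CD226. CD276 (B7-H3) is a relative of PD-L1 in the B7 family, and galectin-9, the product of Lgals9, binds TIM-3. Cd274 is a classical interferon-gamma target, induced through JAK kinases and IRF1, and galectin-9 is also induced by interferon-gamma.

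The estimated depth of the IgG libraries was 19.8 M reads in shSCR and 19.7 M in shCerS4 cells, and that of the Caprin-1 libraries was 27.03 M and 24.7 M. Cers4 had no value, so the labels could not be checked against the knockdown target. Caprin1 stood at 552 and 405 CPM in the IgG libraries of shSCR and shCerS4 cells and at 392 and 310 CPM in the Caprin-1 libraries. Of 8 epithelial and mammary carcinoma markers, all 8 were above 5 CPM in every library, with sums of 5293 to 10346 CPM. None of 8 lymphocyte markers, Ptprc and Cd3e among them, had a value. Of 8 macrophage or neutrophil markers 3 had values, with sums of 26.0 and 49.1 CPM in shSCR IgG and Caprin-1 and 16.0 and 15.9 CPM in shCerS4 IgG and Caprin-1, nearly all from the lysosomal gene Cd68. Of 8 fibroblast markers 6 had values, with sums of 69.3 and 24.7 CPM in shSCR and 44.4 and 21.5 CPM in shCerS4, mostly from Pdgfra. Of 4 endothelial markers Kdr alone had a value, at most 0.666 CPM. The part of these markers in the results was not tested.

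Cd274 and Lgals9 were the members with lower values in shCerS4 cells in both precipitates, and their promoters are shown for that reason, with that of Nectin2, the member with the highest shCerS4 over shSCR ratio in the IgG precipitates. The sequences are the 250 bases before the RefSeq transcript start (build GRCm38.p6), written 5′ to 3′ on the gene's strand. They lie at chr19:29367188-29367437 (plus strand) for Cd274, chr11:78984925-78985174 (minus strand) for Lgals9 and chr7:19749574-19749823 (minus strand) for Nectin2. Capitals mark matches to GAAANNGAA, the core of sites bound by interferon regulatory factors, or to TTCNNNGAA, the GAS element of interferon-gamma target genes, searched on both strands.
Cd274: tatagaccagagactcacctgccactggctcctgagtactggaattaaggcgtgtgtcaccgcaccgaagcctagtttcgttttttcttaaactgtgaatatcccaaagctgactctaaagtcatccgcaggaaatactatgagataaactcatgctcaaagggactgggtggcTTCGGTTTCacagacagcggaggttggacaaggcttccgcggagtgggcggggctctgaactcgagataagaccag
Lgals9: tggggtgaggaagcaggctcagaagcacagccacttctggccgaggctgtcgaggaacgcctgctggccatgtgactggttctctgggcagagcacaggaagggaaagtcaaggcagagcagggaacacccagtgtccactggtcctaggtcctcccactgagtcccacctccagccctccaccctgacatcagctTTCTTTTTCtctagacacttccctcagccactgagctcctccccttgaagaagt
Nectin2: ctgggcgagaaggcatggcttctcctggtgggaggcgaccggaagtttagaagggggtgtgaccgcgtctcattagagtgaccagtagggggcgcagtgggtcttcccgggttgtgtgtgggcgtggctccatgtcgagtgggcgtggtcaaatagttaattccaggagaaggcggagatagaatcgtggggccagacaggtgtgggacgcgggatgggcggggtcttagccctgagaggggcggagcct

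The Cd274 window held 1 GAAANNGAA match, on the minus strand, 76 to 68 bases before the start, and the Lgals9 window held 1, also on the minus strand, 54 to 46 bases before it. Neither window held TTCNNNGAA, and the Nectin2 window held neither of these motifs. Of 3 further motifs searched on both strands, a kB-type motif (the NF-κB site), held by 4.11% of all windows, matched once in Lgals9, 129 to 120 bases before the start, and once in Nectin2, 152 to 143 bases before it. TGANTCA (AP-1) and CACGTG (E-box) matched in no window of a member. Of 32851 mouse promoter windows of the same length, 7.13% held GAAANNGAA and 7.02% held TTCNNNGAA. RefSeq promoters were found for 6 of the 7 members, Pvr being the other one, and those of Cmtm6, Cd47 and Cd276 held neither motif. The GC content of the Cd274 window was 50.4% and that of Lgals9 58.4%, against 62.0% for Nectin2, 77.6% for Cd276 and a median of 52.4% over all windows. A match describes these letters and not a bound site.

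Cd274 had 323.5 CPM in the shSCR IgG library, 377 CPM in shSCR Caprin-1, 100.6 CPM in shCerS4 IgG and 127 CPM in shCerS4 Caprin-1, from 6415, 10201, 1980 and 3130 estimated reads. Both shSCR libraries were above both shCerS4 libraries, and within each line the Caprin-1 library was the higher one. The lower shSCR library stood 2.55-fold above the higher shCerS4 library. Levels of different genes are not set against each other here, because transcript lengths were not at hand. The samples held no library of input RNA, so a CPM is a share of the RNA in a precipitate. Fewer cells of a type, less RNA per cell and a change in what was precipitated cannot be told apart in such bulk libraries.

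**Figure D1:**
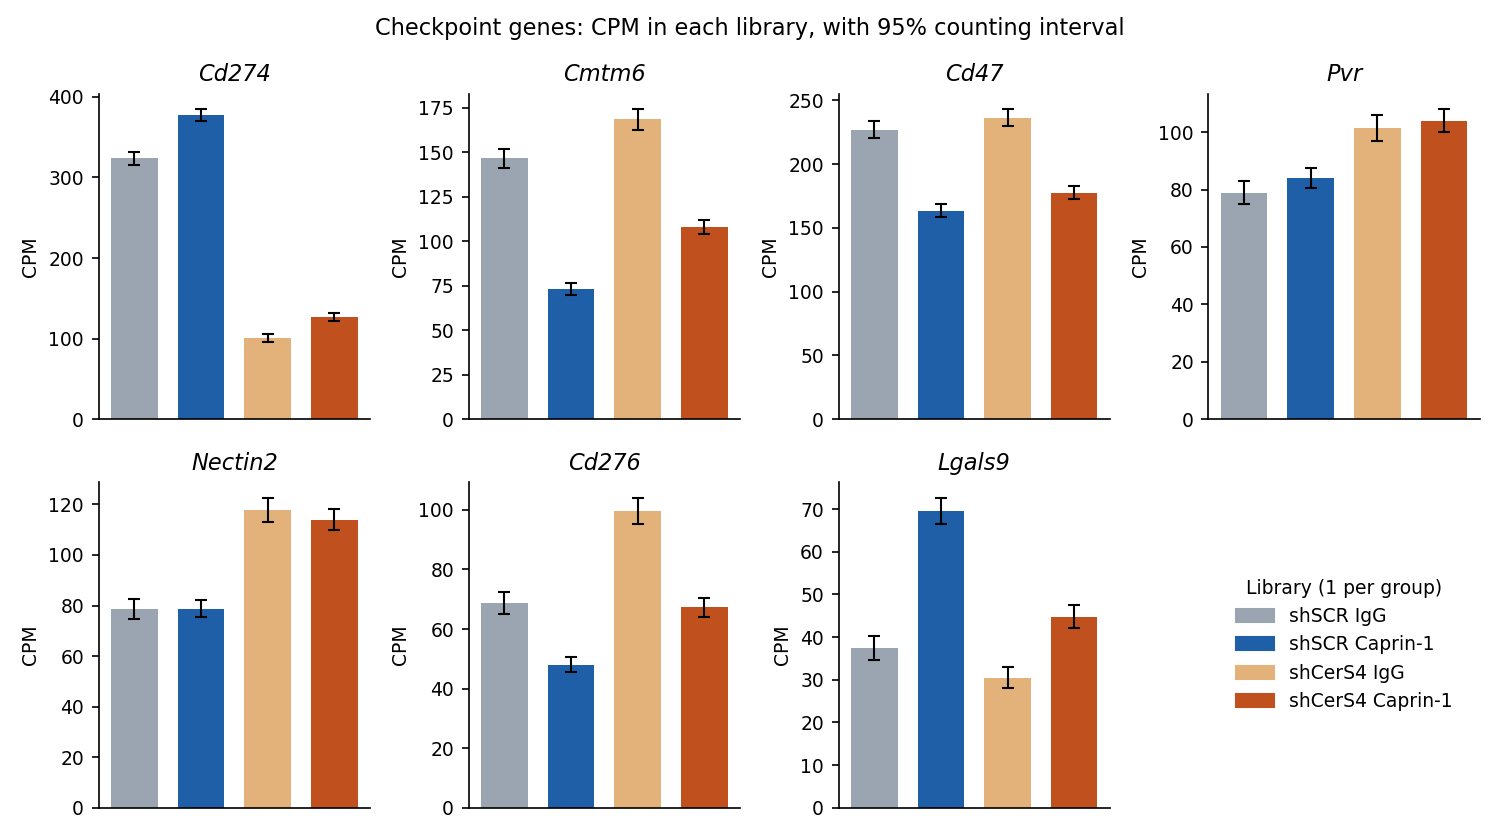
CPM of each of the 7 genes (y axis, from 0, a separate scale per gene) in the 4 libraries, 1 bar per library, with the 95% counting interval of each bar. Cd274 falls from 323.5 and 377 CPM in the shSCR libraries to 100.6 and 127 CPM in the shCerS4 libraries, Nectin2 and Pvr are higher in both shCerS4 libraries, and Lgals9 is highest in shSCR Caprin-1.

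In the Caprin-1 precipitates Cd274 was 2.97-fold lower in shCerS4 cells, a log2 ratio of −1.57 [−1.63, −1.51], the 180th lowest of the 10283 genes. In the IgG precipitates it was 3.21-fold lower, at −1.68 [−1.76, −1.61], the 163rd lowest. It was the 1 member of 7 that was called, that is at least 2-fold different with an interval excluding 0. Over all genes 4.95% were called lower and 6.25% higher in the Caprin-1 precipitates, and 5.34% and 5.69% in the IgG precipitates. The count for the 7 members, 1 in each precipitate, is near that background and is no result about the set. The median log2 ratio over the 7 members was 0.31 with Caprin-1 and 0.20 with IgG, beside 0.15 and 0.10 over all genes.

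Cmtm6, the stabiliser of PD-L1, had 146.7 CPM in shSCR IgG, 73.0 CPM in shSCR Caprin-1, 168.5 CPM in shCerS4 IgG and 108 CPM in shCerS4 Caprin-1. Both IgG libraries were above both Caprin-1 libraries, and within each kind of precipitate the shCerS4 library was higher. Its shCerS4 over shSCR log2 ratio was 0.56 [0.48, 0.65] with Caprin-1 and 0.20 [0.13, 0.27] with IgG, opposite in sign to those of Cd274.

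Lgals9, the galectin-9 gene, had 37.4 CPM in shSCR IgG, 69.5 CPM in shSCR Caprin-1, 30.5 CPM in shCerS4 IgG and 44.7 CPM in shCerS4 Caprin-1. Both Caprin-1 libraries were above both IgG libraries, and within each kind of precipitate the shSCR library was higher. It was 1.55-fold lower in shCerS4 cells with Caprin-1, a log2 ratio of −0.64 [−0.74, −0.53], and 1.23-fold lower with IgG, at −0.29 [−0.45, −0.14]. Both values were under 2-fold, and 9.79% and 23.01% of all genes had lower ratios.

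Nectin2 had 78.6 CPM in shSCR IgG, 78.8 CPM in shSCR Caprin-1, 117.8 CPM in shCerS4 IgG and 114.0 CPM in shCerS4 Caprin-1. Both shCerS4 libraries were above both shSCR libraries, and with library totals the precipitates of one line did not differ beyond counting error. The shCerS4 over shSCR log2 ratio was 0.53 [0.45, 0.61] with Caprin-1 and 0.58 [0.49, 0.68] with IgG.

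Pvr showed the same order of lines, with 78.9 CPM in shSCR IgG, 83.9 CPM in shSCR Caprin-1, 101.4 CPM in shCerS4 IgG and 103.9 CPM in shCerS4 Caprin-1. With library totals the precipitates of one line again did not differ beyond counting error. Its shCerS4 over shSCR log2 ratio was 0.31 [0.23, 0.39] with Caprin-1 and 0.36 [0.27, 0.46] with IgG.

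Cd276, the B7-H3 gene, had 68.7 CPM in shSCR IgG, 48.0 CPM in shSCR Caprin-1, 99.6 CPM in shCerS4 IgG and 67.2 CPM in shCerS4 Caprin-1. The shCerS4 library was the higher one in each kind of precipitate, and shSCR IgG and shCerS4 Caprin-1 did not differ beyond counting error. The shCerS4 over shSCR log2 ratio was 0.49 [0.38, 0.59] with Caprin-1 and 0.54 [0.44, 0.64] with IgG.

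Cd47 had 226.9 CPM in shSCR IgG, 164 CPM in shSCR Caprin-1, 236 CPM in shCerS4 IgG and 178 CPM in shCerS4 Caprin-1. Both IgG libraries were above both Caprin-1 libraries, and the lines lay close together. The shCerS4 over shSCR log2 ratio was 0.12 [0.058, 0.18] with Caprin-1 and 0.058 [−0.0010, 0.12] with IgG, and both values lay below 0 under trimmed-mean scaling, at −0.023 and −0.015.

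**Figure D2:**
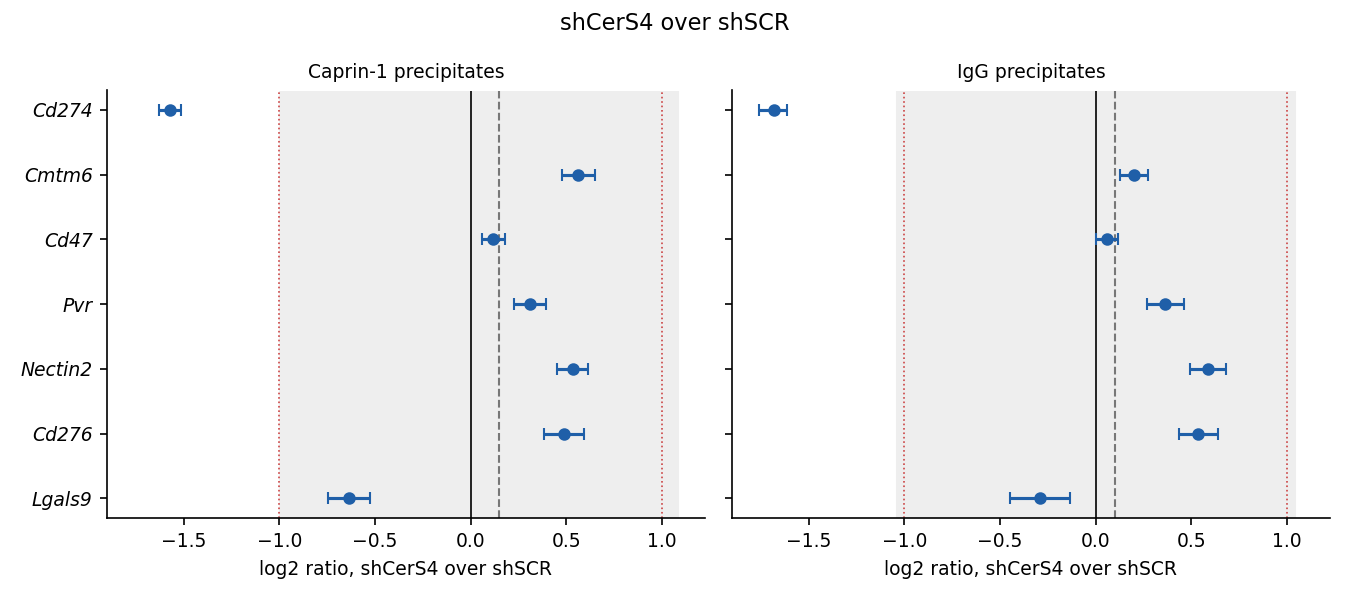
Log2 ratio of shCerS4 over shSCR (x axis) for each of the 7 genes (y axis) in the Caprin-1 precipitates (left) and the IgG precipitates (right). Points are ratios of 1 library over 1 library with 95% counting intervals, the grey band holds the central 90% of the 10283 genes, the dashed line is their median, and the dotted red lines mark 2-fold. Cd274, at −1.57 and −1.68, is the one gene beyond 2-fold, Lgals9 lies below 0, and Cmtm6, Nectin2, Pvr and Cd276 lie above 0 in both panels.

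Scaling sets where 0 lies in these ratios. Scaling by trimmed means, by upper quartiles or by the median of ratios moved every shCerS4 over shSCR log2 ratio in the Caprin-1 precipitates by −0.14, −0.11 and −0.13, and those in the IgG precipitates by −0.074, −0.074 and −0.094. The Caprin-1 over IgG log2 ratios moved by 0.20, 0.18 and 0.17 in shSCR cells and by 0.13, 0.15 and 0.14 in shCerS4 cells. The sign of a value smaller than these shifts is not settled. A call that lies closer to 2-fold than the shift can likewise be lost or gained, as for Ranbp6, H2-T23, Lrp1 and Itgav, described next, whose calls with Caprin-1 were lost under all 3 scalings. Under all 3, Rab27a and Tigit were instead called lower with Caprin-1, as were Khsrp and Hnrnpd under trimmed-mean and median-of-ratios scaling and Lgals1 under trimmed-mean scaling.

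The genomic neighbours of Cd274 were read next. Cd274 spans chr19:29362107-29388095 on the plus strand. The promoter window shown above lies inside this span, since it was set by a RefSeq transcript start. Of the 5 genes with values on each side, 8 in all averaged 5 CPM or more. Plgrkt, the plasminogen receptor gene whose span overlaps that of Cd274, had shCerS4 over shSCR log2 ratios of 0.61 [0.46, 0.75] with Caprin-1 and 0.76 [0.57, 0.96] with IgG. Plgrkt ends at base 29367292, inside the promoter window shown for Cd274. Ric1, the next gene with values on the other side, had 0.91 [0.73, 1.09] and 0.74 [0.60, 0.87]. It starts at base 29522216, so genes without values can lie between it and Cd274. The nearest gene with values on each side of Cd274 was therefore higher in shCerS4 cells in both precipitates, while Cd274 was lower.

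Jak2, a kinase gene of interferon-gamma signalling, lies 3 places before Cd274 among the genes with values. Its log2 ratios were −0.14 [−0.21, −0.072] and −0.36 [−0.43, −0.30]. The other neighbours with Caprin-1 and IgG log2 ratios were Rcl1 at 0.43 and 0.25, Insl6 at 0.58 and 0.89, Ermp1 at 0.24 and −0.21, 9930021J03Rik at 0.67 and 0.68 and Ranbp6 at 1.00 and 0.47. Ranbp6 was called higher with Caprin-1, where 6.25% of all genes were. None of the 8 was called lower with Caprin-1 or IgG, where 4.95% and 5.34% of all genes were, a count near that background. The neighbours under the filter were 1700018L02Rik, averaging 0.996 CPM, at 0.45 and 0.91, and Il33, averaging 0.679 CPM. Il33 was lower in shCerS4 cells, at −2.50 [−4.06, −1.28] with Caprin-1, and had 1.09 CPM in shSCR IgG and 0 CPM in shCerS4 IgG.

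Pvr (chr7:19903578-19921143) and Nectin2 (chr7:19716644-19749573) lie 154004 bases apart. Between them Bcam, the gene of the laminin receptor basal cell adhesion molecule, was called lower in shCerS4 cells, with 71.1 and 30.9 CPM in the shSCR and shCerS4 Caprin-1 libraries. Its log2 ratios were −1.20 [−1.33, −1.08] with Caprin-1 and −1.75 [−1.91, −1.60] with IgG. Cblc, a ubiquitin ligase gene, stood at 0.30 and −0.0024 and Bcl3, a nuclear co-regulator of NF-κB, at 0.024 and 0.56. The flanking members Nectin2 and Pvr were both higher in shCerS4 cells while Bcam between them was lower.

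**Figure D3:**
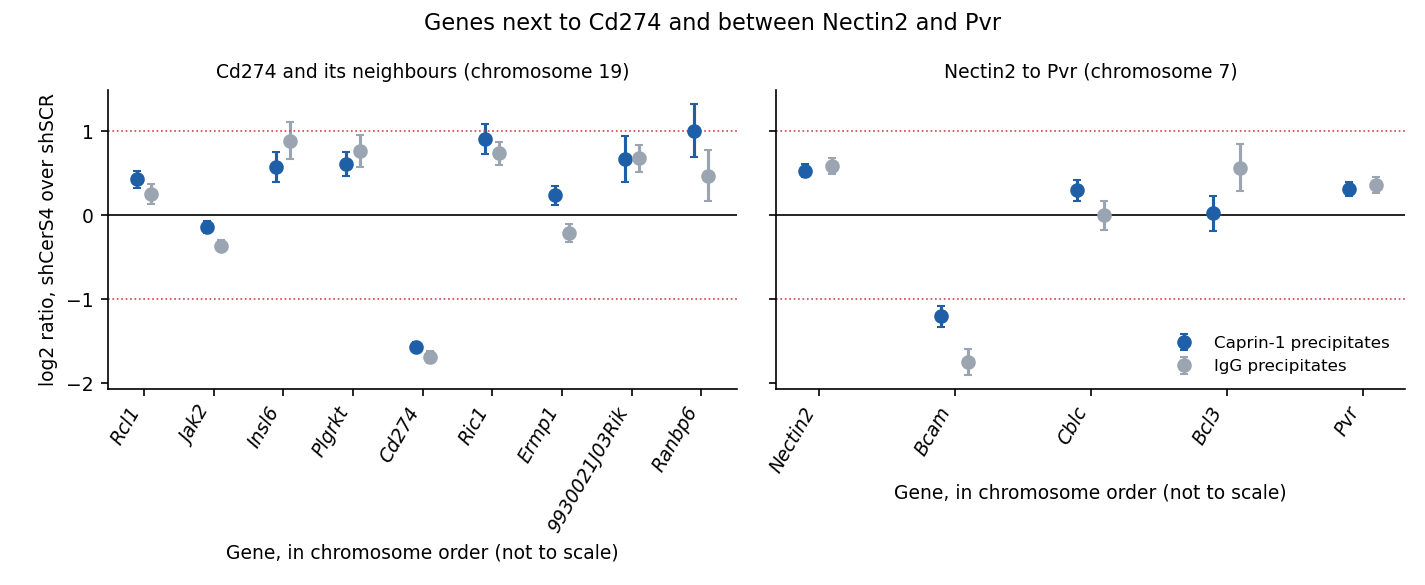
Log2 ratio of shCerS4 over shSCR (y axis) for genes averaging 5 CPM or more beside Cd274 (left) and from Nectin2 to Pvr (right), in chromosome order. Blue points are Caprin-1 precipitates and grey points IgG precipitates, with 95% counting intervals, and dotted red lines mark 2-fold. Cd274 at −1.57 and −1.68 stands between Plgrkt at 0.61 and 0.76 and Ric1 at 0.91 and 0.74, and Bcam is the lowest gene of the right panel.

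The other genes of these pathways were counted by list. Of 36 listed regulators of Cd274 transcription, 32 had a mean of at least 5 CPM. None was called in either direction in either precipitate, where 11.2% and 11% of all genes were called in the Caprin-1 and IgG precipitates. Its median log2 ratio was 0.37 with Caprin-1 and 0.23 with IgG, beside 0.15 and 0.10 over all genes. The largest ratios with Caprin-1 were those of Ifnar2, an interferon receptor chain gene (0.92 with Caprin-1 and 0.66 with IgG), Nlrc5, the activator of MHC class I genes (0.89 and 0.22), the kinase gene Jak1 (0.79 and 0.38) and the hypoxia factor gene Hif1a (0.75 and 0.46). Akt1, the most abundant of the list, stood at 0.066 and −0.078. Irf1, picked after its values were seen because it acts on Cd274, stood at 0.10 and 0.072.

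The 30 listed names of PD-L1 stability and modification stood for 29 genes, since March8 and Marchf8 are names of the same gene. All 29 had a mean of at least 5 CPM. None was called in either precipitate, where 11.2% and 11% of all genes were called with Caprin-1 and IgG. The medians were 0.18 with Caprin-1 and 0.074 with IgG. Cmtm4, a relative of Cmtm6 that also stabilises PD-L1, had the largest ratio with Caprin-1, at 0.96 [0.87, 1.05], and stood at 0.41 with IgG. Others were the deubiquitinase gene Usp9x (0.73 and −0.0015), the palmitoyltransferase gene Zdhhc9 (0.72 and 0.85), Ndrg1 (0.67 and 0.53) and the ubiquitin ligase gene Nedd4, the most abundant (0.31 and −0.082).

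Of 24 listed trafficking genes all were measured. Over all genes 4.95% and 5.34% were called lower and 6.25% and 5.69% higher with Caprin-1 and IgG. By library totals none of the 24 was called with Caprin-1 and 1 was called lower with IgG, near that background. That gene was Rab27a, which encodes a GTPase of exosome release, at −0.97 with Caprin-1 and −1.01 with IgG. With trimmed-mean scaling it was called lower with Caprin-1 too, at −1.11. The dynamin gene Dnm2 stood at 0.77 and 0.77, the ESCRT ATPase gene Vps4a at 0.77 and 0.77, the lysosomal membrane gene Lamp1 at 0.71 and 0.78 and the importin gene Kpnb1 at −0.32 and −0.69.

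Of 24 listed genes of mRNA stability and decay, 23 had a mean of at least 5 CPM. Over all genes 6.25% and 5.69% were called higher with Caprin-1 and IgG, and 1 of the 23 was called higher in both precipitates. That was Zc3h12a, which encodes the mRNA-degrading nuclease regnase-1. It had 16.7 CPM in shSCR IgG, 15.6 CPM in shSCR Caprin-1, 56.3 CPM in shCerS4 IgG and 62.4 CPM in shCerS4 Caprin-1. Both shCerS4 libraries were thus above both shSCR libraries, the reverse of Cd274, with log2 ratios of 2.001 [1.85, 2.16] and 1.75 [1.58, 1.94]. By library totals 0 genes of the list were called lower with Caprin-1, against 2 (Khsrp and Hnrnpd) under trimmed-mean scaling. With IgG 2 were called lower, Tardbp (−0.84 with Caprin-1 and −1.15 with IgG) and, chosen after its values were seen, Alkbh5 (−0.50 and −1.07). Over all genes 4.95% and 5.34% were called lower with Caprin-1 and IgG. Khsrp and Hnrnpd, which encode proteins that bind AU-rich elements, stood at −0.89 and −0.90 and at −0.87 and −0.27, and Pabpc1, the most abundant, at −0.042 and −0.076.

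Of 33 other listed ligands and surface enzymes of tumour cells that act on immune cells, 15 had a mean of at least 5 CPM. With Caprin-1, 2 were called higher and 1 lower, where 6.25% and 4.95% of all genes were. With IgG 1 was called higher and 0 lower, where 5.69% and 5.34% of all genes were. Nectin4, a relative of Nectin2, had 0.101 CPM in shSCR IgG, 0.259 CPM in shSCR Caprin-1, 10.6 CPM in shCerS4 IgG and 11.4 CPM in shCerS4 Caprin-1. It was near 0 in both shSCR libraries and passed the filter through the shCerS4 libraries alone, with log2 ratios of 5.37 [4.40, 6.79] with Caprin-1 and 6.39 [4.84, 9.77] with IgG. H2-T23, which encodes the NKG2A ligand Qa-1, was called higher with Caprin-1 at 1.05 [1.01, 1.09] and stood at 0.93 with IgG. Tnfsf9, whose product activates T cells through the costimulatory receptor 4-1BB, was called lower with Caprin-1 at −1.07 [−1.33, −0.81] and stood at −0.30 with IgG. Lgals1, the galectin-1 gene and the most abundant of the list, stood at −0.86 and −0.85. Pdcd1lg2, which encodes the second PD-1 ligand, PD-L2, had no value.

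Of 11 listed partners and modifiers of CD47, 9 averaged 5 CPM or more. By library totals 4 were called higher and 1 lower with Caprin-1, where 6.25% and 4.95% of all genes were. With IgG 1 was called higher and 1 lower, where 5.69% and 5.34% of all genes were. Under each of the 3 scalings named above the count with Caprin-1 was 2 higher and 1 lower. Sirpa, the CD47 receptor gene, had 4.19 CPM in shSCR IgG, 3.85 CPM in shSCR Caprin-1, 15.5 CPM in shCerS4 IgG and 16.2 CPM in shCerS4 Caprin-1. Both shCerS4 libraries were above both shSCR libraries, with log2 ratios of 2.07 [1.76, 2.40] and 1.88 [1.53, 2.26]. Both shSCR values of Sirpa were under 5 CPM, so it passed the filter through the shCerS4 libraries alone. The CD47 ligand gene Thbs1 stood at 1.51 with Caprin-1 and 0.96 with IgG, the phagocytosis receptor gene Lrp1 at 1.09 and 0.48, and the integrin gene Itgb3 at −1.78 and −2.97. Calr, the most abundant of the list, stood at 0.0098 and 0.096. Itgav, the fourth gene called higher, was chosen after its values were seen and stood at 1.01 and 0.17. Of 12 listed receptors of immune cells, Sirpa and Tigit had a mean of at least 5 CPM. By library totals 1 was called higher and 0 lower with Caprin-1, where 6.25% and 4.95% of all genes were. With IgG it was 1 higher and 1 lower, where 5.69% and 5.34% of all genes were called. Tigit, the receptor gene for PVR, had 32.4 CPM in shSCR IgG, 23.7 CPM in shSCR Caprin-1, 15.1 CPM in shCerS4 IgG and 12.0 CPM in shCerS4 Caprin-1, although no lymphocyte marker had a value. By library totals Tigit was called lower with IgG, at −1.10 [−1.30, −0.90], and stood under 2-fold with Caprin-1, at −0.98.

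The 5 genes whose levels over the 4 libraries were most like those of Cd274 were sought over the 7726 genes that averaged 20 CPM or more. The measure was the root-mean-square difference of log2 CPM after each gene was centred on its mean. They were the mitotic kinase gene Plk1 (a difference of 0.047), the caveolar protein gene Cavin3 (0.077), the nucleoporin gene Nup85 (0.086), the kinetochore gene Spdl1 (0.086) and the centromere gene Mis18a (0.088). Plk1 had 152 CPM in shSCR IgG, 169 CPM in shSCR Caprin-1, 49.2 CPM in shCerS4 IgG and 58.2 CPM in shCerS4 Caprin-1. It had the order of libraries of Cd274, which follows from how it was chosen and is no separate result. Among the members Lgals9 was the nearest to Cd274, at 0.63, which ranked 889th of the 7726 genes, and the other 5 lay at 0.93 to 1.15. These are likenesses over 4 libraries and no more.

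Caprin-1 precipitates were then compared with IgG precipitates of the same line, which gives how much larger a share a gene held with Caprin-1. In shSCR cells 1 of the 7 members was called, Cmtm6, which was lower with Caprin-1. Over all genes 13% were called lower and 1.69% higher. In shCerS4 cells no member was called, where 8.96% of genes were called, 8.02% lower and 0.934% higher. These counts too are near the background.

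Lgals9 had the highest Caprin-1 over IgG log2 ratio of the members in both lines, 0.89 [0.77, 1.02] in shSCR and 0.55 [0.41, 0.70] in shCerS4 cells. Of all genes, 3.17% and 9.97% were above it. Cd274 stood at 0.22 [0.18, 0.27] and 0.33 [0.25, 0.42], a 1.17-fold and a 1.26-fold larger share with Caprin-1. Its place was 70.5% and 79.7% of the way up the list of all genes. Pvr stood at 0.089 [−0.0048, 0.18] and 0.036 [−0.049, 0.12] and Nectin2 at 0.0043 [−0.091, 0.10] and −0.048 [−0.13, 0.032], so with library totals counting error covered 0 for both genes in both lines. With trimmed-mean scaling the intervals lay above 0, at 0.29 [0.19, 0.38] and 0.17 [0.083, 0.25] for Pvr and at 0.20 [0.11, 0.30] and 0.084 [0.0047, 0.16] for Nectin2, and they also did with median-of-ratios and upper-quartile scaling.

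The members with the lower share with Caprin-1 were Cmtm6, Cd276 and Cd47. Cmtm6 was 2.01-fold lower in shSCR cells, a log2 ratio of −1.01 [−1.09, −0.92], and 1.56-fold lower in shCerS4 cells, at −0.64 [−0.72, −0.57]. Its call in shSCR cells was lost under all 4 other scalings, the lowest size being −0.81, while Lgals9 was called higher there under 3 of them. Cmtm4, the relative of Cmtm6, stood at −1.82 and −1.27. Over the 29 measured genes of PD-L1 stability the medians were −0.41 and −0.44. Of these, 6 and 4 were called lower, where 13% and 8.02% of all genes were, and 0 higher. The trait was not shared by all of them, since Otub1 (0.65 and 0.43) and Cmtm7 (0.52 and 0.58) lay above 0. Cd276 stood at −0.52 [−0.63, −0.41] and −0.57 [−0.66, −0.47], and Cd47 at −0.47 [−0.53, −0.41] and −0.41 [−0.47, −0.35]. The members therefore lay on both sides of the median of all genes, which was −0.13 in shSCR and −0.11 in shCerS4 cells.

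**Figure D4:**
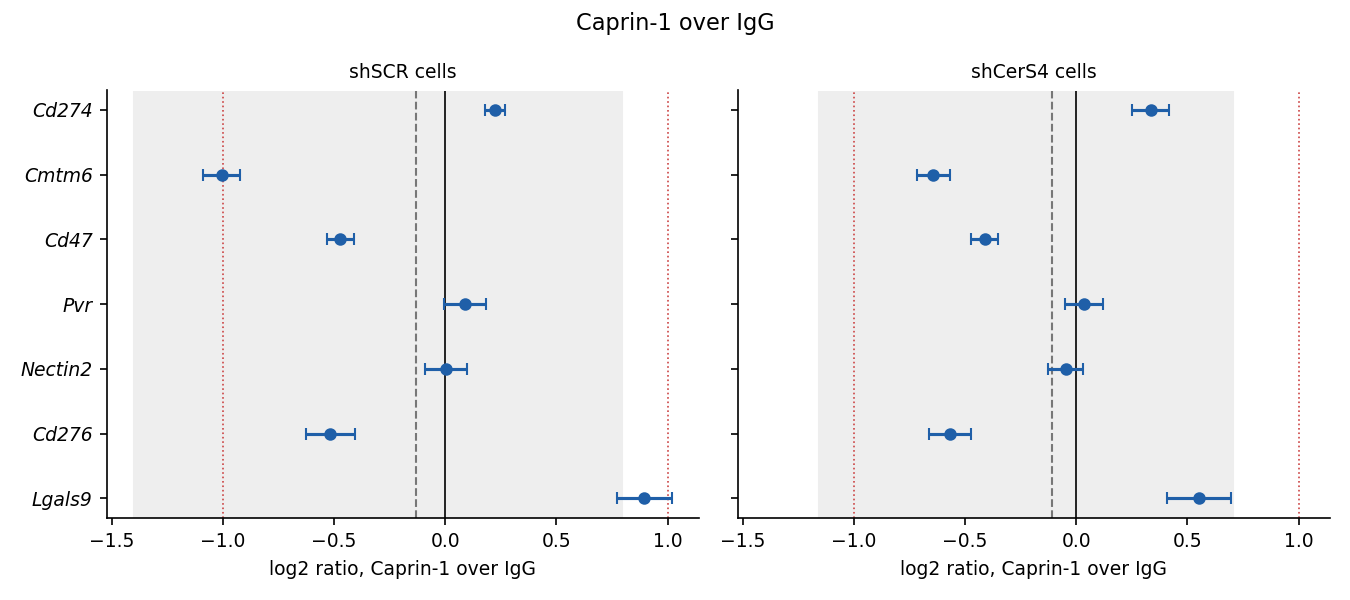
Log2 ratio of Caprin-1 over IgG (x axis) for each of the 7 genes (y axis) in shSCR cells (left) and shCerS4 cells (right), with 95% counting intervals. The grey band holds the central 90% of the 10283 genes, the dashed line is their median and the dotted red lines mark 2-fold. Lgals9 is the highest member at 0.89 and 0.55 and Cmtm6 the lowest at −1.01 and −0.64.

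This ratio fell with the genomic span of genes, so the members were set beside genes of like span. Genes were split by span into 5 classes of equal size, whose medians fell from 0.34 for the shortest to −0.76 for the longest in shSCR cells and from 0.25 to −0.57 in shCerS4 cells. The third class, 17180 to 31245 bases, had median Caprin-1 over IgG log2 ratios of −0.12 in shSCR and −0.085 in shCerS4 cells, and it held Cd274, Cmtm6, Pvr, Cd276 and Lgals9. Within that class 98.0% and 92.5% of genes were below Lgals9, 74.4% and 82.8% were below Cd274, and 7.54% and 14.2% were below Cmtm6. The fourth class held Cd47 and Nectin2 and had medians of −0.41 and −0.31. Cd47, at −0.47 and −0.41, was close to that median, with 45.7% and 42.0% of the genes of that span class below it.

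The Caprin-1 over IgG log2 ratio of shCerS4 cells minus that of shSCR cells was under 2-fold for all 7 members, where 0.982% of all genes were called, 0.632% higher and 0.35% lower. It was highest for Cmtm6, at 0.36 [0.25, 0.47], and lowest for Lgals9, at −0.34 [−0.53, −0.15]. For Cd274 it was 0.11 [0.019, 0.20], beside a median of 0.041 over all genes. With trimmed-mean scaling it was 0.045 [−0.048, 0.14], and the interval also held 0 with median-of-ratios (0.078) and upper-quartile scaling (0.080). The intervals of Cd47 (0.060), Pvr (−0.053), Nectin2 (−0.052) and Cd276 (−0.050) held 0. The Caprin-1 over IgG ratios of Cmtm6 and Lgals9 were thus nearer to 1 in shCerS4 than in shSCR cells. A like narrowing was seen over all genes, of which 14.7% were called in shSCR and 8.96% in shCerS4 cells. The medians of the shortest and longest span classes went from 0.34 and −0.76 in shSCR to 0.25 and −0.57 in shCerS4 cells. The narrowing is therefore not particular to Cmtm6 and Lgals9.

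Transcript rows were read last. Cd274, Cmtm6, Pvr and Cd276 had 1 row each, Nectin2 and Lgals9 had 2 and Cd47 had 5, which equals the number of curated RefSeq transcripts of each gene. The rows carry no transcript name and are numbered here by abundance. Summed rows of a member came to within 0.089 of a whole number of reads in each of the 28 values, while 19 of the 20 single-row values of Cd47 and 4 of the 8 of Nectin2 were more than 0.1 reads from one. How reads were divided between transcripts is not given in the sources used here, and the intervals of single rows do not cover it.

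The rows of Nectin2 differed between the lines. Row 1 had 36.9 CPM in shSCR IgG, 35.7 CPM in shSCR Caprin-1, 73.2 CPM in shCerS4 IgG and 65.9 CPM in shCerS4 Caprin-1. Row 2 had 41.7, 43.1, 44.7 and 48.1 CPM in the same order. Row 1 was higher in both shCerS4 libraries, while row 2 changed little. The log2 ratio of row 1 was 0.88 [0.77, 1.00] with Caprin-1 and 0.99 [0.86, 1.12] with IgG, and that of row 2 was 0.16 [0.042, 0.28] and 0.10 [−0.038, 0.24]. Row 1 made up 47.0% [44.5, 49.5] and 45.4% [43.2, 47.5] of the Nectin2 reads in the shSCR IgG and Caprin-1 libraries, and 62.1% [60.1, 64.1] and 57.8% [55.9, 59.6] in the shCerS4 ones (exact Clopper-Pearson intervals). The higher Nectin2 level in shCerS4 cells thus lay mainly in 1 of its 2 rows.

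The rows of Cd47 differed between the precipitates. Row 1 had 146.7 CPM in shSCR IgG, 82.4 CPM in shSCR Caprin-1, 167.0 CPM in shCerS4 IgG and 100.2 CPM in shCerS4 Caprin-1. Row 2 had 55.7, 71.4, 46.2 and 66.0 CPM in the same order. Row 1 was lower with Caprin-1 in both lines and row 2 was higher. The Caprin-1 over IgG log2 ratio of row 1 was −0.83 [−0.91, −0.75] in shSCR and −0.74 [−0.81, −0.66] in shCerS4 cells, and that of row 2 was 0.36 [0.25, 0.47] and 0.51 [0.39, 0.63]. Row 2 made up 24.5% [23.3, 25.8] of Cd47 reads with IgG and 43.6% [42.2, 45.1] with Caprin-1 in shSCR cells, and 19.6% [18.4, 20.7] and 37.1% [35.7, 38.6] in shCerS4 cells. Row 3, at 20.6, 9.02, 21.9 and 10.6 CPM, went with row 1, at log2 ratios of −1.19 and −1.05. The Caprin-1 over IgG ratio of the Cd47 gene sum is therefore made of rows that lie on opposite sides of 0.

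**Figure D5:**
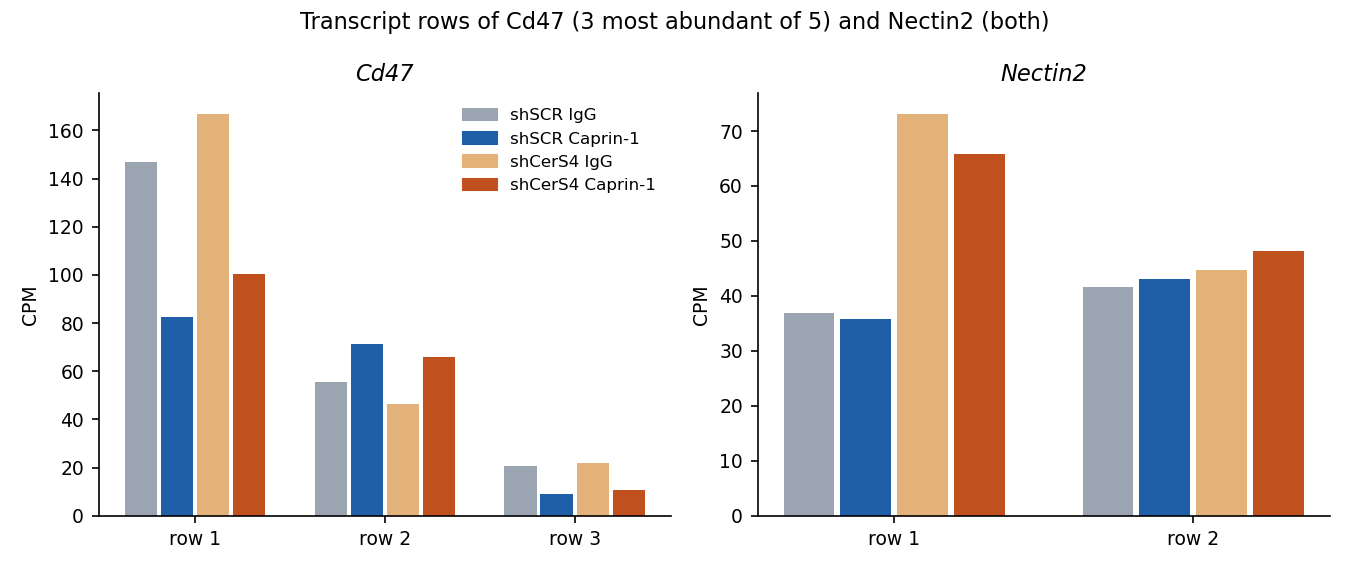
CPM (y axis, from 0) of the 3 most abundant of the 5 Cd47 transcript rows (left) and of both Nectin2 rows (right) in the 4 libraries, 1 bar per library. Row 1 of Cd47 is lower and row 2 higher with Caprin-1 in both lines, and row 1 of Nectin2 is at 73.2 and 65.9 CPM in shCerS4 against 36.9 and 35.7 CPM in shSCR libraries.

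The second row of Lgals9 had 20.2 estimated reads, 0.746 CPM, in the shSCR Caprin-1 library and fewer than 1 read in each of the others. It made up 1.07% [0.65, 1.64] of Lgals9 reads there, so the Lgals9 values given above rest on the first row.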

How the data were processed

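RNA of 4 immunoprecipitates (IgG or Caprin-1, shSCR or shCerS4 4T1 cells, 1 library per group) was sequenced from 500 ng of total RNA, in libraries made, per the labels' protocols, with a SMARTER kit. STAR, Partek and build mm10 are named in the submitters' processing notes, without versions. Annotation and strand are not given in the sources used here. The deposited values are CPM per transcript row, with 0.0001 added to each, although the name of the table calls them raw counts.

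The constant was subtracted and rows were summed by symbol. The CPM worth of 1 read was found from the spacing of values of genes with 1 row, of which 81.7% to 83.7% then lay within 0.05 reads of a whole number under 40 CPM. A total of 3 reads equals 0.151 and 0.152 CPM in the IgG libraries of shSCR and shCerS4 cells and 0.111 and 0.122 CPM in the Caprin-1 libraries. Log2 ratios were taken after scaling to library totals with 0.5 reads added, for the genes averaging 5 CPM or more across the libraries. Intervals are exact binomial ones at 95% (a normal approximation for the difference of ratios), and they ignore amplification and variation between cultures. A gene was called at a ratio of 2-fold or more whose interval did not hold 0. No significance test was made.

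The members and lists were chosen with earlier results of these data known. Named were the members, up to 4 genes per list with the largest ratio in the Caprin-1 precipitates and the most abundant one, the neighbours of Cd274 and the genes between Pvr and Nectin2, and the 5 genes most like Cd274. Lists came from general knowledge. Positions and promoters are those of RefSeq (GRCm38.p6), and 12957 of 12967 symbols matched by name and 2 by a synonym. Levels per length were planned and could not be computed without transcript lengths. Alternatives were other scalings, filters and added reads, the most abundant row alone, and calls without intervals. The scripts were tested on simulated data (Python 3.11.15, numpy 2.4.6, pandas 2.3.3, scipy 1.17.1).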

Additional observations from a re-analysis of the deposited data

Results flagged for a closer look

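Opposite directions with both intervals excluding 0, either of the shCerS4 over shSCR ratio in the 2 precipitates or of the Caprin-1 over IgG ratio in the 2 lines, appeared in 5 of 124 pairs of ratios looked at, over 53 named genes and 9 transcript rows. With 1 library per group the difference was not tested in any of them. The share of all genes with such opposite directions was not counted, so the 5 pairs have no background beside them. Irf1, Itgav, Alkbh5, Otub1 and Cmtm7 were not among the 53 genes. The shCerS4 over shSCR log2 ratio with Caprin-1 and with IgG was 0.24 and −0.21 for Ermp1, a neighbour of Cd274, 0.31 and −0.082 for Nedd4, and 0.066 and −0.078 for Akt1. The Akt1 value with Caprin-1 is smaller than the shift between scalings. The Caprin-1 over IgG log2 ratio of Tnfsf9 was 0.25 in shSCR and −0.52 in shCerS4 cells. That of the fourth row of Cd47 was −1.98 in shSCR and 1.54 in shCerS4 cells, from 63.4 and 21.6 estimated reads in shSCR IgG and Caprin-1 and 5.31 and 20.7 in shCerS4 IgG and Caprin-1.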

How the results depend on the processing

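Cd274 kept its sign and its side of 2-fold in all 5 comparisons under the other scalings, added reads and the most abundant row. Its difference of ratios weakened, from 0.11 to 0.045, 0.080 and 0.078 under scaling by trimmed means, upper quartiles and the median of ratios, with intervals that held 0. Its log2 ratio of shCerS4 over shSCR under the same 3 scalings was −1.71, −1.68 and −1.70 with Caprin-1 and −1.76, −1.76 and −1.78 with IgG. Its Caprin-1 over IgG log2 ratio was 0.42, 0.40 and 0.40 in shSCR cells, 0.29 there with totals without the 50 most abundant genes, and 0.47, 0.48 and 0.48 in shCerS4 cells. The one member called for Caprin-1 over IgG in shSCR cells, Cmtm6, ranged from −1.01 to −0.81 and lost its call under all 4 other scalings. The count was 0 with totals without the 50 most abundant genes. Under the other 3 scalings Lgals9 was called instead, at up to 1.09. All other counts of members called were unchanged. Counts of listed genes under the other scalings were added after seeing the data, for shCerS4 over shSCR only. The report names the genes whose calls with Caprin-1 changed. With IgG none changed. Cd47 changed sign in 6 of 30 alternatives and Nectin2 in 5 of 30, and the other 5 members in none. The count of all genes called moved by over 1.5 times with filters. It was 686 for shCerS4 over shSCR with Caprin-1 at 20 CPM and 2201 without a filter (1152 at 5 CPM), and 635 and 2418 with IgG (1134 at 5 CPM). Without a filter it was 2468 and 1715 for Caprin-1 over IgG in shSCR and shCerS4 cells (1511 and 921 at 5 CPM). For the difference of ratios it was 11 at 20 CPM, 407 at 1 CPM, 768 without a filter and 567 with the most abundant row alone (101 at 5 CPM). Genes called higher and lower with Caprin-1 in shCerS4 over shSCR were 643 and 509 by totals and 442 and 639 by trimmed-mean scaling, with IgG 585 and 549 against 474 and 620. For Caprin-1 over IgG they were 174 and 1337 against 491 and 854 in shSCR cells and 96 and 825 against 214 and 569 in shCerS4 cells, and for the difference of ratios 65 and 36 against 48 and 49. No paired analysis was possible because each group had 1 library. Depth leaves counting intervals of the members' ratios well under 2-fold, and nothing here measures variation between cultures.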
